A study of Mus musculus with 17 samples.

Results

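The genes described here are hormone and marker genes of enteroendocrine cells, the scattered hormone-releasing cells of the gut epithelium. Those chosen were Chga, Chgb, Gcg, Pyy, Insl5, Sct, Cck, Nts, Neurod1 and Pax6, taken as the rows of the count table with exactly these symbols, and the 10 were found among 23719 rows. All 10 passed the filter on low counts, which left 14146 genes for testing. RNA of whole colon pieces from C57BL/6 male mice aged 32 to 34 weeks was sequenced in 2 groups. Control mice (n = 9) drank water. GWI mice (n = 8), a model of Gulf War illness, took pyridostigmine bromide, a reversible cholinesterase inhibitor, at 2 mg/kg with their drinking water for 7 days, had 21 days of recovery, and were studied at 30 days. Each sample is taken as 1 mouse. Where samples shared a mouse, the p-values would measure only the spread between samples. The column headers of the counts share their first number or letters in Control replicates 3 to 5 and in 7 and 8. In GWI they do so in replicates 1 and 2, 3 to 5, and 7 and 8. The sources do not say what the headers stand for, and dependence between such samples was not tested. The question put to these genes is whether their RNA differed between the groups after the recovery.

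Enteroendocrine cells sense nutrients, microbial products and bile acids at the gut lumen and release peptide hormones that act on nerves, muscle, pancreas and appetite. In the colon, L cells make the glucagon precursor, peptide YY and insulin-like peptide 5, and enterochromaffin cells make serotonin. Granins help to pack the hormones into secretory granules, and a set of transcription factors directs the cells' formation.

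The total counts of the 17 libraries ran from 16293537 to 20741212. In a bulk sample of the colon wall, fewer cells of a type and less RNA per cell cannot be told apart. Colon epithelium markers were present in every mouse, with a summed level over 14 genes of 20575 to 41052 CPM (counts relative to the scaled library size) in Control, with a median of 26899, and 22792 to 40982 CPM in GWI, with a median of 30257. Car1 was the most abundant of them, with means of 12478 CPM in Control and 11963 CPM in GWI, and none was at 0. Scaling to this sum, used below, therefore rests largely on Car1. Pancreatic Ins1, Ins2, Cpa1 and Amy2b had 0 counts in all 17 mice. Of the pancreas list, the hormone genes Ppy and Iapp alone passed the filter, and the list summed to 2.04 through 6.00 to 9.48 CPM in Control and 1.93 through 4.47 to 8.62 CPM in GWI, with Ppy the most abundant.

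Some libraries stood apart from the rest before any comparison of groups. Control replicate 1 and GWI replicate 5 had 71.0 and 75.3 CPM of Hoxa13, against 1.59 to 16.1 CPM in the other 15 mice. Their Hoxb13 was 55.5 and 11.4 CPM, against 0.416 to 2.67 CPM. Hox genes mark position along the gut, with Hoxa13 and Hoxb13 known for the hindmost stretch. In the same mice Hoxb8 was 2.91 and 10.8 CPM, against 35.6 to 61.6 CPM elsewhere, and Hoxb6, Hoxb7, Hoxd10 and Hoxd11 were also below all the others. Hoxd13, at 2.08 and 0.568 CPM, lay inside the range of the other mice, 0.238 to 2.56 CPM. The labels name the tissue only as colon, and the place along the colon from which each piece came was not tested. Control replicates 6 and 7 stood apart in another way: 6 of 14 small intestine markers were higher in both than in each other mouse, with 119 and 314 CPM of Fabp6 against at most 6.90 CPM elsewhere. Control replicate 9 had the highest summed level of the small intestine list, 3864 CPM, most of it Fabp2 (2334 CPM) and Clec2h (1230 CPM), the lowest TMM factor (0.799) and the highest share of counts in its 10 most abundant genes (23.1%). Without it, edgeR called 0 of the 10 members, with 0 at an unadjusted p under 0.05.

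Per length of annotated exons, Chgb stood highest among the members by the median over 17 mice, and Chga was next. Chgb averaged 106 ± 31.8 CPM per kilobase in Control (SD, n = 9) and 125 ± 39.8 in GWI (SD, n = 8), and it was above Chga in 17 of 17 mice. Chga averaged 63.1 ± 21.8 CPM per kilobase in Control and 77.8 ± 27.7 in GWI. It was above Nts in 13 of 17 mice, and in Control the median of Nts, 76.7 CPM per kilobase, was above that of Chga, 62.1. By the median over 17 mice, Nts, Pyy, Sct and Gcg followed, with 51.7, 43.3, 34.8 and 34.1 CPM per kilobase. The order of Sct and Gcg was not held within mice, since Sct was the higher in only 7 of 17. Insl5 (3.09), Cck (1.80) and Neurod1 (1.62) were lower, Cck and Neurod1 changing places from mouse to mouse (Cck higher in 10 of 17), and Pax6, with a median of 0.138 CPM per kilobase, was below Neurod1 in 17 of 17 mice.

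Between the groups, 0 of the 10 members were called by edgeR at an adjusted p under 0.05, while 26.8% of all tested genes were. At an unadjusted p under 0.05 the count was also 0 with edgeR, and DESeq2 and limma-voom likewise called 0 of 10, with 1 member each at an unadjusted p under 0.05 (Insl5 and Neurod1). The median log2 fold change, GWI over Control, was 0.052 over the members and −0.056 over all tested genes. Of the tested genes, 13.4% were called higher in GWI (1889 genes) and 13.5% lower (1903 genes). That split depended on the scaling: with upper-quartile factors it was 1214 higher and 2992 lower, and with libraries scaled to summed epithelium counts it was 134 and 964. A value that missed the threshold does not show that the groups were the same, and the interval of each difference is given below.

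**Figure D1:**
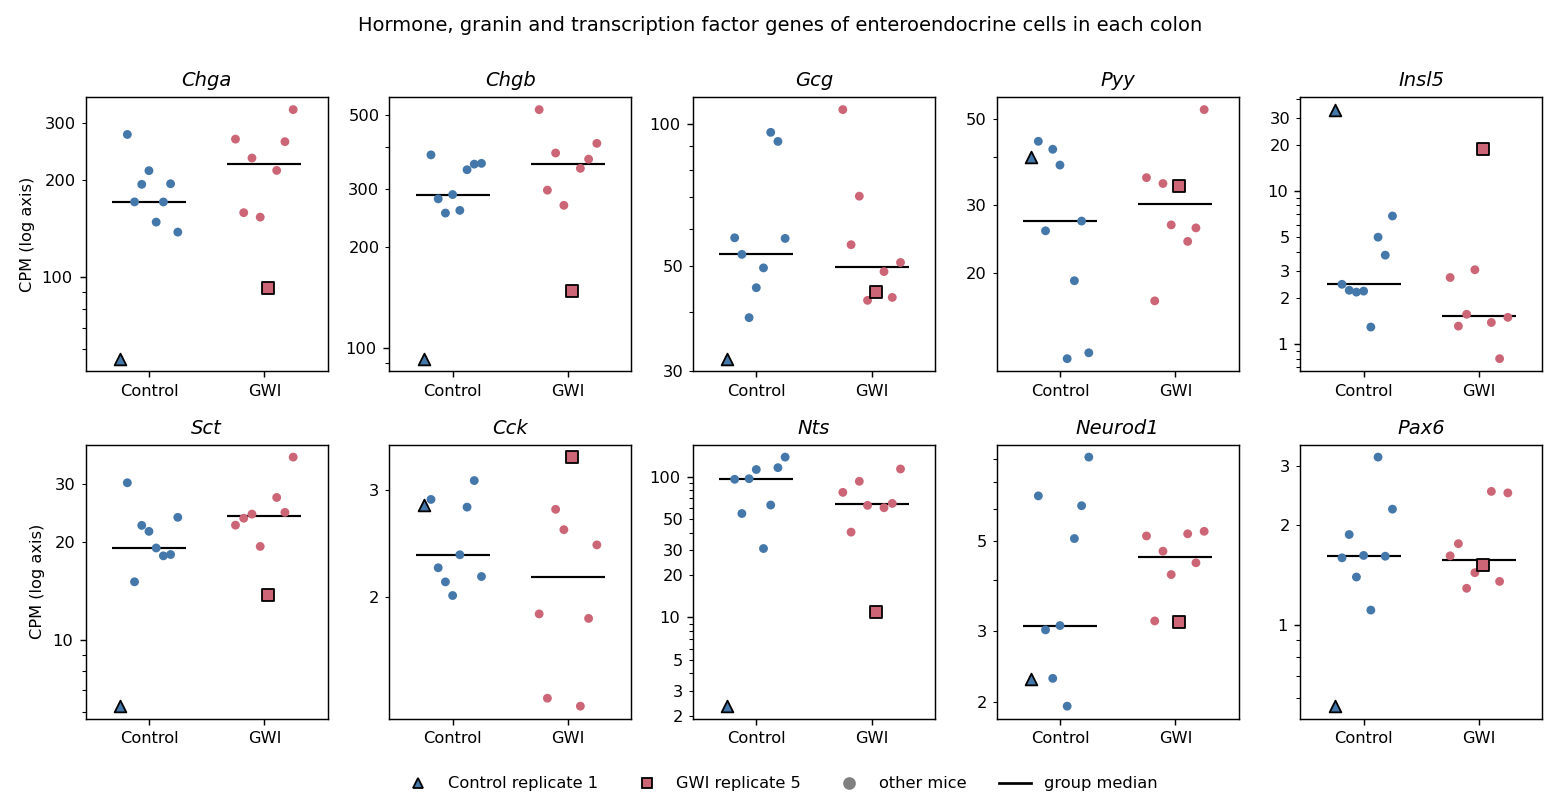
CPM of each of the 10 members in each mouse (vertical log axes), with Control mice in blue on the left and GWI mice in red on the right of each panel, and a line at each group's median. Control replicate 1 (triangle) and GWI replicate 5 (square) are the highest for Insl5, at 33.9 and 18.6 CPM, and the lowest for Chga, Chgb, Sct and Nts, while the other mice of both groups overlap for every member.

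Chga codes for chromogranin A, a granule protein used as a general marker of these cells. Its level ran from 56.1 CPM through a median of 171 to 277 CPM in Control, and from 92.5 through 224 to 330 CPM in GWI. The groups overlapped, with Control replicate 1 and GWI replicate 5 at the bottom of each. The fold change was 0.30 on the log2 scale (95% confidence interval −0.23 to 0.84, adjusted p = 0.381).

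Chgb codes for secretogranin I (chromogranin B), a second granin of the same granules. It ran from 92.9 through 288 to 379 CPM in Control and from 148 through 356 to 518 CPM in GWI. Again the same mice were lowest in their groups and the rest overlapped, GWI replicate 1 being the highest. The log2 fold change was 0.24 (−0.26 to 0.74, adjusted p = 0.457).

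Gcg codes for proglucagon, which L cells cut into the glucagon-like peptides GLP-1 and GLP-2. Its level was 31.8 to 96.0 CPM in Control with a median of 52.9, and 42.3 to 107 CPM in GWI with a median of 49.8. High values fell in both groups: Control replicates 7 and 8 were at 96.0 and 91.8 CPM and GWI replicate 1 at 107 CPM, and the remaining mice lay between 31.8 and 70.3 CPM. The group means were 57.8 ± 22.1 CPM (SD, n = 9) and 57.7 ± 22.0 CPM (SD, n = 8), and the 95% interval of the log2 fold change ran from −0.48 to 0.48 (adjusted p = 0.995).

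Pyy codes for peptide YY, which slows gut transit and is released with the glucagon-like peptides. It ran from 12.05 through 27.3 to 43.9 CPM in Control and from 16.99 through 30.2 to 53.0 CPM in GWI. Control replicates 6 and 9 were lowest, GWI replicate 8 was highest, and the groups overlapped over most of their range. The log2 fold change was 0.11 (−0.45 to 0.67, adjusted p = 0.772).

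Insl5 codes for insulin-like peptide 5, a hormone of colonic L cells. In Control it ran from 1.28 through 2.44 to 33.9 CPM, and in GWI from 0.798 through 1.52 to 18.6 CPM. The highest value of each group belonged to Control replicate 1 and GWI replicate 5, and no other mouse was above 6.83 CPM. Over all 17 mice the log2 fold change was −0.78, with a wide interval of −2.31 to 0.75 (adjusted p = 0.428). The result turned on these libraries. Without Control replicate 1 the log2 fold change was 0.26 (adjusted p = 0.745), and without GWI replicate 5 it was −1.91 and was called (adjusted p = 0.0360). Without both, a comparison chosen after seeing the data, Insl5 averaged 3.24 ± 1.85 CPM in Control (SD, n = 8) and 1.75 ± 0.810 CPM in GWI (SD, n = 7), with a log2 fold change of −0.87 (−1.62 to −0.12, adjusted p = 0.0647). In that fit too 0 of 10 members were called, and 34.9% of tested genes were.

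Nts codes for neurotensin, a peptide known mostly from the lower small intestine and proximal colon. Its level was 2.34 to 138 CPM in Control (median 95.7) and 10.9 to 113 CPM in GWI (median 63.5). The lowest mouse of each group was again Control replicate 1 or GWI replicate 5, and the other 15 mice lay between 30.8 and 138 CPM with both groups mixed. The log2 fold change was −0.27 (−1.30 to 0.76, adjusted p = 0.696), and −0.27 (−0.85 to 0.30, adjusted p = 0.441) without these mice.

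Sct codes for secretin, which prompts the pancreas to release bicarbonate and which several gut endocrine cell types make. It ran from 6.25 through 19.1 to 30.3 CPM in Control and from 13.7 through 23.96 to 36.4 CPM in GWI. Control replicates 2, 4, 5 and 9 lay within the range of the GWI mice other than replicate 5, which was 19.3 to 36.4 CPM, and Control replicates 1 and 3 and GWI replicate 5 were the lowest. The log2 fold change of 0.30 (−0.17 to 0.77) did not pass the test (adjusted p = 0.314).

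Cck codes for cholecystokinin, which acts on the gall bladder and pancreas and is chiefly a hormone of the upper small intestine. It was low in the colon, at 2.01 to 3.11 CPM in Control and 1.32 to 3.41 CPM in GWI. GWI replicates 2 and 6 were the lowest and GWI replicate 5 the highest of all 17. The log2 fold change was −0.19 (−0.59 to 0.22, adjusted p = 0.478).

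Neurod1 and Pax6 code for transcription factors of the endocrine lineage, Neurod1 of many enteroendocrine cell types and Pax6 with a known part in Gcg transcription. Neurod1 ran from 1.95 through 3.09 to 8.09 CPM in Control and from 3.15 through 4.57 to 5.29 CPM in GWI, so the GWI mice lay inside the Control range. Its log2 fold change was 0.053 (−0.52 to 0.62, adjusted p = 0.900). Pax6 lay between 0.569 and 3.20 CPM in Control and between 1.29 and 2.52 CPM in GWI, as few as 9 counts in the lowest library, and its log2 fold change was 0.051 (−0.49 to 0.59, adjusted p = 0.898). Their directions were not stable over scalings and left-out mice. With the smooth muscle minus epithelium level of each mouse as a covariate, the log2 fold change of Neurod1 was −0.58 (adjusted p = 0.0912), and its adjusted p over all alternative fits ran from 0.0612 (limma-voom, log2 fold change 0.44) to 1.000.

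**Figure D2:**
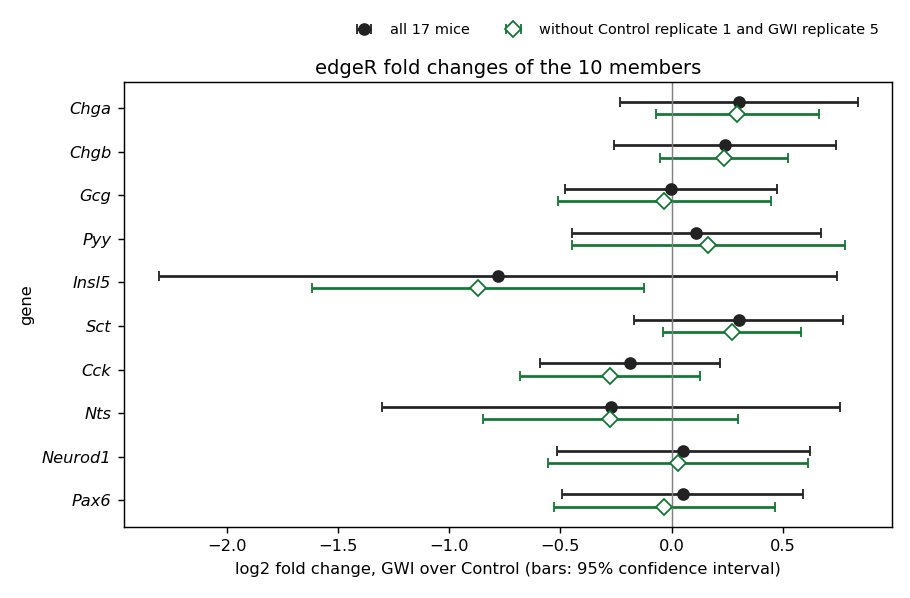
The log2 fold change of GWI over Control for each member (horizontal axis), with its 95% confidence interval, over all 17 mice (filled circles) and without Control replicate 1 and GWI replicate 5 (open diamonds). Every interval over 17 mice crosses 0, and without the pair the interval of Insl5 runs from −1.62 to −0.12 while its adjusted p is 0.0647.

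The larger spread among these genes lay between mice of the same group. Of the 10 members, Chga, Chgb, Sct and Nts were lower in both Control replicate 1 and GWI replicate 5 than in each of the other 15 mice, and Insl5 was higher in both. Of all tested genes, 14.9% stood outside the other 15 mice in both in this way, 7.03% above and 7.91% below. Gcg, Pyy, Cck, Neurod1 and Pax6 did not separate them. Counts of 2 genes within a library need no scaling between mice. The log2 ratio of Insl5 to Nts counts was 3.84 in Control replicate 1 and 0.77 in GWI replicate 5, against −6.28 to −3.65 in the other mice. The log2 ratio of Insl5 to Gcg counts was 0.089 and −1.24 in these mice, against −5.70 to −3.06. That of Chga to Chgb, −0.73 and −0.68, was inside the range of the others, which was −1.37 to −0.31.

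Some genes of the enteroendocrine and receptor lists set the same mice apart. Of genes with a median over 1 CPM, these were 3 of 7 other hormone genes, 1 of 8 granin and processing genes and 4 of 13 transcription factors. They were also 3 of 7 enterochromaffin genes, 3 of 9 sensors, 2 of 7 receptors and 2 of 13 secretory and ion channel genes. Most genes of each list did not stand apart. The share over all tested genes, without that limit on the median, was 14.9%. The granin count and the secretory and ion channel count were near that share. Among enterochromaffin genes, Fev, Lmx1a and Slc18a1, the vesicular monoamine transporter, were below all other mice in both, with Slc18a1 at 3.10 and 3.15 CPM against 4.83 to 8.93 CPM. Fev and Lmx1a are counted among the transcription factors as well. Tph1, which makes the serotonin precursor, was 10.4 and 24.03 CPM, against 21.5 to 53.3 CPM, so only Control replicate 1 lay outside the range. Ffar4, a receptor for long-chain fatty acids, was 3.79 and 7.69 CPM against 16.7 to 32.8 CPM. Iapp, the amylin gene, was 0.0632 and 0.0631 CPM against 0.849 to 5.44 CPM, while Ppy, coding for pancreatic polypeptide, was higher in both, at 5.94 and 4.98 CPM against 0.797 to 4.34 CPM. Vgf, Adm, Pam, Npy1r, Cckar and Scn3a were also above all other mice in both, with Cckar at 15.9 and 14.9 CPM against 0.184 to 8.58 CPM. The epithelium around them differed as well. Of 14 epithelium genes, Krt8, Krt18, Krt20, Cldn3 and Slc26a3 were above all others in both and Car1 was below. Car1 was lower, at 1988 and 3865 CPM against 7849 to 29280 CPM, and Slc26a3 was higher, at 2230 and 1371 CPM against 181 to 1022 CPM. The summed epithelium level itself, 25862 and 26751 CPM, was inside the range of the others, 20575 to 41052 CPM. The summed neuron level of Control replicate 1, 637 CPM, was the highest of the 17 mice, and GWI replicate 5 had the highest summed muscle and neuron levels of its group, 11832 and 428 CPM. The Hox genes named above, other than Hoxd13, stood apart in the same mice as Insl5, Chga, Chgb, Sct and Nts. Gcg, Pyy and Cck did not. The part of the Hox genes in the hormone levels was not tested beyond a Hox covariate in the comparison of groups. That fit, chosen after seeing the data, called 0 of the 10 members.

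**Figure D3:**
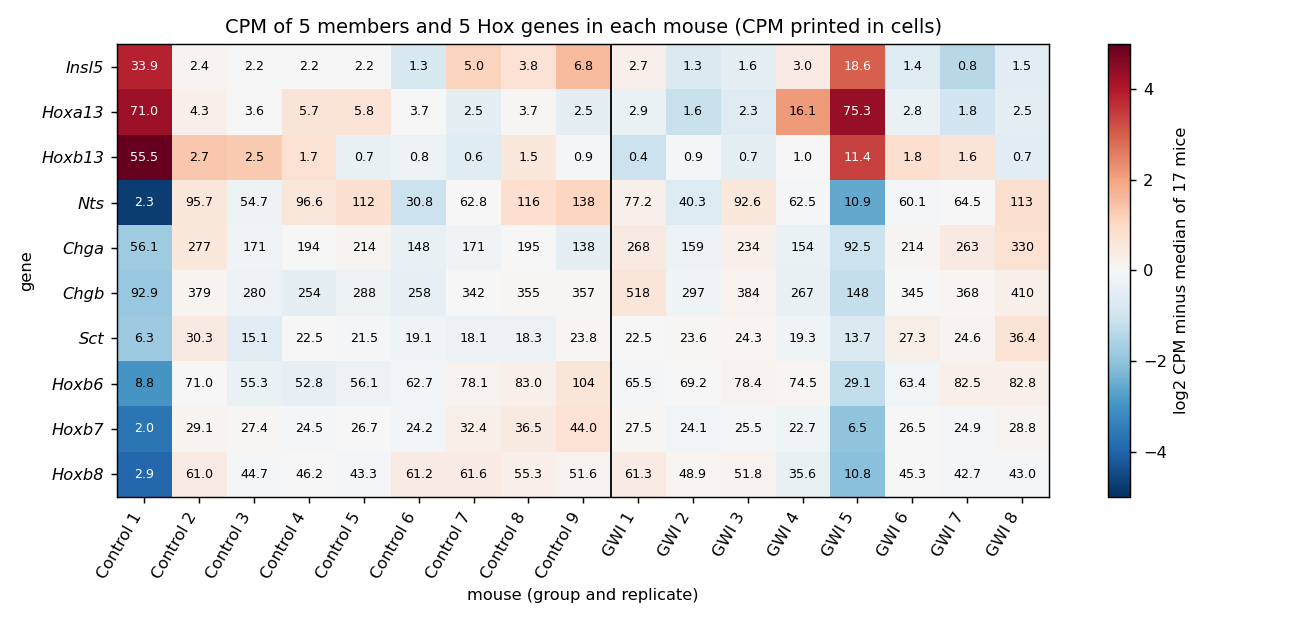
CPM of 5 members and 5 Hox genes (rows) in each mouse (columns, Control left of the line), printed in the cells and coloured by log2 CPM (after adding 0.1) minus the median of the 17 mice. Control replicate 1 and GWI replicate 5 hold the highest Insl5, Hoxa13 and Hoxb13 and the lowest Nts, Chga, Chgb, Sct, Hoxb6, Hoxb7 and Hoxb8.

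Because these mice form a cluster apart, with too few mice for a value of its own, correlations between members are given over the other 15 (8 Control and 7 GWI, each centred on its group mean). Of 45 pairs, 2 passed an adjusted p under 0.05 by permutation of Pearson's r, and 3 by permutation of Spearman's rho. Chga followed Pyy, with Pearson r = 0.81 (permutation p = 9.0e-05, adjusted p = 0.00405) and Spearman rho = 0.79 (permutation p = 0.00079, adjusted p = 0.0178). Within Control r was 0.89 and within GWI 0.81, and without the mice farthest from the median of Chga, Control replicate 2 and GWI replicate 8, it was 0.72. This pair did not pass over the 17 mice first planned, where the mice apart are pooled with the rest (permutation p = 0.474, adjusted p = 0.610). Chgb followed Neurod1, with r = 0.74 (permutation p = 0.00038, adjusted p = 0.00855) and rho = 0.84 (permutation p = 0.00040, adjusted p = 0.0178). Here r was 0.97 within Control, 0.68 within GWI, and 0.80 without Control replicate 4 and GWI replicate 1, the farthest in Chgb, and this pair passed over 17 mice too (permutation p = 0.00062, adjusted p = 0.00465).

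No pair among the L cell hormones Gcg, Pyy and Insl5 passed the adjusted threshold over these 15 mice, which does not show that they varied apart. Gcg and Pyy had r = −0.055 (permutation p = 0.851, adjusted p = 0.911) and rho = −0.014 (permutation p = 0.965), with −0.25 within Control, 0.27 within GWI and −0.078 without Control replicate 7 and GWI replicate 1. Gcg and Insl5 had r = 0.52 (permutation p = 0.0596, adjusted p = 0.244) and rho = 0.55 (permutation p = 0.0394, adjusted p = 0.253), with 0.60 within Control and 0.41 within GWI, and 0.30 without the same mice. As ratios to epithelium counts, which share a denominator, Gcg and Insl5 passed with r = 0.64 (permutation p = 0.0140, adjusted p = 0.0419), though not by rho = 0.53 (adjusted p = 0.0877), and r was 0.27 without Control replicate 7 and GWI replicate 1. Pyy and Insl5 had r = −0.11 (permutation p = 0.728, adjusted p = 0.819) and rho = −0.064 (permutation p = 0.834, adjusted p = 0.873), with −0.26 within Control and 0.21 within GWI, and −0.16 without Control replicates 6 and 9. Gcg and Chgb passed by rho and not by r. They had r = 0.72 (permutation p = 0.00478, adjusted p = 0.0717) and rho = 0.75 (permutation p = 0.00284, adjusted p = 0.0426), 0.68 within Control and 0.76 within GWI, and it fell to 0.48 without Control replicate 4 and GWI replicate 1. Over the 17 mice first planned this pair passed by both (adjusted p = 0.0241 for r and 0.0144 for rho).

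Genes with a pattern most like 3 of the members were sought among all tested genes, as a description over mice with each group's mean removed. For Gcg they were Kit, Limk2, Fam174b, Tspan13 and Lrig1, with r from 0.93 to 0.97 over 17 mice and from 0.92 to 0.99 over 15. Kit was the closest in both sets, and Rnf43, Aqp1 and Syt7 replaced 3 of the 5 over 15 mice. For Pyy they were Trir, Saraf, Aldoc, Ier2 and Epb41l4a, with r from 0.86 to 0.91 over 17 mice and from 0.86 to 0.92 over 15, where Tmsb10, Cyba, Ybx3 and Rac2 were closer than 4 of them. For Insl5 they were Sycn, St3gal6, Nxpe4, Ano1 and Gna14, with r from 0.92 to 0.96 over 17 mice. Over 15 mice the r of these genes with Insl5 was 0.78 to 0.86, and the 5 closest were other genes, led by Rpl10a-ps1 at 0.92, which had r = −0.14 over 17 mice.

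The 7 lists of other enteroendocrine genes and of receptors for the member hormones held 68 tested genes. Of these, edgeR called 2 higher in GWI and 8 lower, or 2.94% and 11.8%, where 13.4% and 13.5% of all tested genes were. Receptors gave 1 of the higher and 2 of the lower calls, and they need not be made by enteroendocrine cells. The count of 8 lower was 3 to 12 with single mice omitted: 3 without Control replicate 4, GWI replicate 6 or 7, 4 without Control replicate 3 or 5 or GWI replicate 1, 2, 3 or 4, 5 without Control replicate 2 or 6, and 12 without Control replicate 8. The counts also depended on the tool and scaling. limma-voom called 8 higher and 28 lower (11.8% and 41.2%, against 27.6% and 29.5% of all tested genes). After scaling to epithelium counts edgeR called 0 and 1 (1.47% lower, against 0.947% higher and 6.81% lower of all tested genes). Of 7 tested genes of other gut hormones, Tac1, the tachykinin precursor that neurons also make, was called lower. Its level was 16.4 to 59.9 CPM in Control and 18.8 to 39.9 CPM in GWI, ranges that overlap, with a log2 fold change of −0.63 (adjusted p = 0.0414). The call was lost (adjusted p up to 0.0792) without any 1 of Control replicates 1, 3, 4, 5 and 6 or GWI replicates 1, 2, 3, 4, 6 and 7, which is 11 of 17 mice. Guca2a and Sst, the most abundant uncalled genes, had log2 fold changes of −0.054 (adjusted p = 0.836) and −0.21 (adjusted p = 0.692). Gip had 4 counts in all 17 mice together and Ghrl 81, both under the filter.

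Of 8 granin and prohormone processing genes, Scg5, a chaperone of prohormone convertase 2, and Cpe, which trims peptide ends, were called lower and none higher. Scg5 was 6.29 to 13.4 CPM in Control and 3.34 to 10.0 CPM in GWI, overlapping, with a log2 fold change of −0.66 (adjusted p = 0.0274). Cpe was 165 to 754 CPM in Control and 161 to 401 CPM in GWI, with a log2 fold change of −0.77 (adjusted p = 0.0457). The call of Scg5 was lost (adjusted p up to 0.0580) without Control replicate 4 or GWI replicate 1, 6 or 7. That of Cpe was lost (up to 0.0935) without any 1 of Control replicates 1 to 6 or GWI replicates 1, 2, 3, 4, 6 and 7, which is 12 of 17 mice. The uncalled Pam and Scg2 had log2 fold changes of −0.32 and −0.62 (adjusted p = 0.316 and 0.229). The median over the list was −0.59. limma-voom called 7 of the 8 lower, where it called 29.5% of all tested genes lower. DESeq2 called 2 lower, and edgeR 0 after scaling to epithelium counts.

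Of 16 tested enteroendocrine transcription factors and of 11 nutrient and bile acid sensors, 0 were called by edgeR in either direction, with 2 and 1 at an unadjusted p under 0.05. DESeq2, which tested 18 and 13 of them, called 1 and 0, and limma-voom called 5 and 3. Foxa1 and Atoh1, the most abundant of the factors, had log2 fold changes of 0.23 (adjusted p = 0.145) and 0.58 (adjusted p = 0.0989), and Ffar2 and Ffar4, fatty acid receptors, had 0.15 (adjusted p = 0.515) and 0.40 (adjusted p = 0.303). Of 7 enterochromaffin genes, 1 was called. Ddc, the decarboxylase that completes serotonin synthesis, was 36.9 to 56.9 CPM in Control and 48.2 to 60.3 CPM in GWI. All Control mice but replicate 9 lay below the GWI range, and the log2 fold change was 0.28 (adjusted p = 0.0197), and it was called without each single mouse. The call was lost under upper-quartile scaling (adjusted p = 0.0836), scaling to epithelium (0.566), the muscle and the small intestine covariates (0.337 and 0.0651), without Control replicates 6 and 7 (0.0665) and without these and Control replicate 1 and GWI replicate 5 (0.118). Tph1 had a log2 fold change of 0.44 (adjusted p = 0.155) and Rab3c −0.58 (adjusted p = 0.146).

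The smallest p among these 7 lists was that of a receptor. Sort1 codes for sortilin, a sorting protein that also binds neurotensin and is made in many cell types. Its level was 197 to 420 CPM in Control and 399 to 510 CPM in GWI. Only Control replicate 1 lay inside the GWI range, and the log2 fold change was 0.67 (0.43 to 0.92, adjusted p = 0.00120). It stayed called with any single mouse omitted, and was not called when libraries were scaled to epithelium counts (log2 fold change 0.49, adjusted p = 0.103). Npy4r, a receptor for pancreatic polypeptide and peptide YY, was called lower, at 5.30 to 19.0 CPM in Control and 4.99 to 11.8 CPM in GWI (log2 fold change −0.80, adjusted p = 0.0218). Npy2r, the main receptor for the shortened form of peptide YY, was also called lower, at 2.02 to 9.17 CPM in Control and 1.95 to 4.52 CPM in GWI (log2 fold change −0.82, adjusted p = 0.0219). The ranges overlapped for both, and both stayed called with any single mouse omitted. Other settings lost these calls. Npy2r was not called with the replicate block (adjusted p = 0.0848), the small intestine and muscle covariates (0.0888 and 0.148) or without Control replicates 6 and 7 (0.0749), its log2 fold change being −0.63 or lower in every fit. Npy4r was not called after scaling to epithelium (0.0548) or with the muscle covariate (0.984). Glp2r and Cckar, the uncalled receptors with the highest levels, had log2 fold changes of −0.64 (adjusted p = 0.0523) and −0.40 (adjusted p = 0.658). The receptors of insulin-like peptide 5 and secretin had few counts: Rxfp4 had at most 8 and Sctr at most 6 in any library, both under the filter.

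Of 14 secretory and ion channel genes, Cplx2, Scgn and Rab3b were called lower. Cplx2, a regulator of vesicle release, was 11.4 to 29.6 CPM in Control and 10.2 to 21.2 CPM in GWI (log2 fold change −0.60, adjusted p = 0.0227), and it stayed called with any single mouse omitted. Its call was lost after scaling to epithelium (adjusted p = 0.0781), with the muscle covariate (0.963) and without Control replicates 6 and 7 (0.0515). Scgn (log2 fold change −0.54, adjusted p = 0.0452) and Rab3b (log2 fold change −0.88, adjusted p = 0.0488) lost their calls more easily. For Scgn this was so (adjusted p up to 0.0902) without any 1 of Control replicates 2, 3, 4, 5 and 9 or GWI replicates 1 to 7, and for Rab3b (up to 0.105) without any 1 of Control replicates 2 to 7 or GWI replicates 1 to 7. Slc5a1 and Syt7, uncalled, had log2 fold changes of 0.12 (adjusted p = 0.544) and 0.20 (adjusted p = 0.261).

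Levels of muscle and nerve markers are given beside those lower calls. Of 10 smooth muscle genes, 7 were called lower in GWI and 0 higher, led by Tagln (log2 fold change −1.17, adjusted p = 0.00628) and Mylk (−0.91, adjusted p = 0.0150). Without Control replicates 6 and 7, 2 of the 10 were called lower, without Control replicate 1 and GWI replicate 5 all 10 were, and DESeq2 called 9 over 17 mice. The summed muscle level, with Myh11 the most abundant gene, was 3690 through 11584 to 23923 CPM in Control and 3658 through 5142 to 11832 CPM in GWI (exact permutation p = 0.0384, adjusted over 17 lists 0.163). Of these 17 summed lists, 2 passed by exact permutation. The receptors of the member hormones, led by Sort1, summed to 230 through 327 to 484 CPM in Control and 425 through 495 to 535 CPM in GWI (difference of log2 means 0.56, exact permutation p = 0.000206, adjusted 0.00350), and Control replicate 1 alone lay inside the GWI range. Most of this sum is Sort1, with means of 290 CPM in Control and 462 CPM in GWI, and 6 of the 7 tested receptors had a negative log2 fold change (median −0.51, 2 called lower). The enteric glia list, led by Erbb3, summed to 202 through 259 to 430 CPM in Control and 395 through 447 to 520 CPM in GWI (difference 0.63, exact permutation p = 0.00111, adjusted 0.00944), and Control replicates 1 and 2 lay inside the GWI range. Most of this sum is Erbb3, which epithelium also makes, with means of 210 CPM in Control and 395 CPM in GWI, and 5 of the 7 tested genes of the list had a negative log2 fold change (median −0.98), so the sum does not show that glial RNA was higher. The summed enteric neuron level, led by Uchl1, was 103 through 307 to 637 CPM and 127 through 208 to 428 CPM (exact permutation p = 0.377, adjusted 0.535), and edgeR called 1 of its 13 genes, Nefl, lower. All 13 had a negative log2 fold change, with a median of −0.58, and DESeq2 called 1 and limma-voom 12 of them lower. No gene of either list was at 0 in all mice. With the muscle minus epithelium level of each mouse as a covariate, the log2 fold changes of Cpe, Npy4r and Rab3b turned to 0.28, 0.0063 and 0.20, and those of Tac1, Scg5, Npy2r, Cplx2 and Scgn were −0.21, −0.38, −0.64, −0.013 and −0.34, with none of the 8 called (adjusted p from 0.148 to 0.984). That fit called 3 other enteroendocrine list genes lower. The share of muscle and nerve tissue in these differences was not tested beyond that fit.

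Epithelial markers were called higher where they were called. Of 14 colon epithelium genes, 5 were called higher and 0 lower, led by Cdh1 (log2 fold change 0.62, adjusted p = 0.00422) and Cdx2 (0.38, adjusted p = 0.00831). After scaling to the summed counts of these same 14 genes, edgeR called 0 of them. That scaling divides the genes by their own total, so it is no separate test of them. The summed epithelium level had an exact permutation p = 0.277 (adjusted 0.535). Of 8 goblet cell genes, Muc2 was called higher (log2 fold change 0.51, adjusted p = 0.0465), and the list summed to 12118 through 14573 to 21152 CPM in Control and 14038 through 18384 to 22285 CPM in GWI (exact permutation p = 0.0204, adjusted 0.116). Without Control replicates 6 and 7, 3 epithelium genes and 0 goblet cell genes were called by edgeR, the latter with 1 at an unadjusted p under 0.05. Without Control replicate 1 and GWI replicate 5, 9 and 3 were called higher. The part of the epithelium in the hormone levels was not tested beyond the scaled fit, whose sum is largely Car1. Control replicate 9 had the highest sum, 41052 CPM, with 29280 CPM of Car1. Its Cdh1, Vil1 and Krt8, at 539, 270 and 2200 CPM, were the lowest of all mice. A call lost or kept after this scaling is therefore not one corrected for the amount of epithelium alone. Relative to the epithelium counts, which moved the median log2 fold change of all genes from −0.056 to −0.22, the members had log2 fold changes from −0.84 (Insl5) to 0.18 (Chga), and 0 were called.

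The remaining lists were small. Of the 7 tested glial genes, 3 were called lower, Cdh19 and Foxd3 among them, and Erbb3 was called higher. Of 10 tested small intestine genes, Fabp6, Lyz1 and Anpep were called lower, all with their high values in Control replicates 6 and 7, and Alpi higher. Without these mice 0 of the 10 were called by edgeR and 3 had an unadjusted p under 0.05, the log2 fold changes being −0.96 for Fabp6 (adjusted p = 0.0814), −0.75 for Lyz1 (0.0854), 0.22 for Anpep (0.555) and 0.86 for Alpi (0.0892). Itgax was the 1 gene called, lower, among 7 immune genes, and 0 of 6 tuft cell and 0 of 2 tested pancreas genes were called by edgeR, with 1 and 0 at an unadjusted p under 0.05. DESeq2 called 0 of either, and limma-voom called 3 tuft cell genes and 0 pancreas genes. The part of these cell types in hormone levels was not tested beyond a small intestine covariate and fits without Control replicates 6 and 7. Those fits called 0 of the 10 members.

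The members are spread over the mouse genome (GENCODE M21 on GRCm38). Chgb (chr2:132781278-132795079), Gcg (chr2:62474530-62483650), Neurod1 (chr2:79452521-79456751) and Pax6 (chr2:105668900-105697364) share chromosome 2. Chga is at chr12:102554969-102565028, Nts at chr10:102481756-102490486, Pyy at chr11:102106676-102107832, Insl5 at chr4:103017872-103026842, Sct at chr7:141278330-141279133 and Cck at chr9:121489824-121495694. Counts were compared over whole genes, exons of all annotated transcripts together. Exons of Neurod1 share 201 of their 2729 bases with exons of Cerkl on the same strand and 154 with those of Gm26755 on the other, so reads there cannot be assigned to Neurod1 with certainty. No exon of the other 9 members overlapped one of another annotated gene.

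The promoters of the members that stood apart together in Control replicate 1 and GWI replicate 5 are shown. Insl5 went the opposite way to the others in these mice, and 0 of the 10 pairs among the 5 genes passed an adjusted p under 0.05 by permutation over the other 15, with 3 at an unadjusted p of Pearson's r under 0.05. Over the 17 mice first planned, each of these pairs passed by permutation of Pearson's r (adjusted p from 0.00382 to 0.0478), though not all by Spearman's rho. The genes were chosen for standing apart in the mice that are pooled there. Each window is 300 bases of the RefSeq promoter table (GRCm38.p6), from 250 bases before the start to 50 after it, and all 10 members were matched in 13 windows. Both strands were searched for TGACG, the core of the cAMP response element, for CAGATG, an E box that NEUROD1 can bind, and for TAATTA, a homeodomain core. Of 32851 windows in the table, 20.8% held TGACG, 17.2% CAGATG and 5.29% TAATTA. Capitals mark TGACG or CAGATG on either strand, with matches that overlap run together. The windows lie at chr12:102554691-102554990 (plus strand) for Chga, chr2:132781392-132781691 (plus strand) for Chgb, chr10:102490369-102490668 (minus strand) for Nts, chr7:141279084-141279383 (minus strand) for Sct and chr4:103026679-103026978 (minus strand) for Insl5, the last being the nearer of its 2 windows to the annotated start.
Chga: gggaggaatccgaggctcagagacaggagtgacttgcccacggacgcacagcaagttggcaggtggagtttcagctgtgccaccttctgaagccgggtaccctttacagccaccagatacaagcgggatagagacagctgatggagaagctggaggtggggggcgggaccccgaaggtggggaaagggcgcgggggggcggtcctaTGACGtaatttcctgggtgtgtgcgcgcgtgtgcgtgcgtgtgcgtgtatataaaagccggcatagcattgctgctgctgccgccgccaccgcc
Chgb: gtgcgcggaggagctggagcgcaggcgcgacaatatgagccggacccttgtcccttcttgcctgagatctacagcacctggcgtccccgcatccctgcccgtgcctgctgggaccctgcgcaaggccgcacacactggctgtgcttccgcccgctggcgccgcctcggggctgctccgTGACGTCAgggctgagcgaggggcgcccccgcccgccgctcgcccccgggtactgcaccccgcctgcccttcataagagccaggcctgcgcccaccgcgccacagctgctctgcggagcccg
Nts: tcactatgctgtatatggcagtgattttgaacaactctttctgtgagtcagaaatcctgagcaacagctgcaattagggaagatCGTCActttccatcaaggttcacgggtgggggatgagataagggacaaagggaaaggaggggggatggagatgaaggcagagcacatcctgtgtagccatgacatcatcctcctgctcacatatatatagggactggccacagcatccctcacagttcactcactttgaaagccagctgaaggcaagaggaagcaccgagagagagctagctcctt
Sct: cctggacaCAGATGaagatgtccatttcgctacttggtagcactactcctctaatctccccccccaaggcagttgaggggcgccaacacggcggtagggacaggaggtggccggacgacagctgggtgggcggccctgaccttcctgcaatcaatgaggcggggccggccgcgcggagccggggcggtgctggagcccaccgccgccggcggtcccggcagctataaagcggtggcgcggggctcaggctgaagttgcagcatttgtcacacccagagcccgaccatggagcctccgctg
Insl5: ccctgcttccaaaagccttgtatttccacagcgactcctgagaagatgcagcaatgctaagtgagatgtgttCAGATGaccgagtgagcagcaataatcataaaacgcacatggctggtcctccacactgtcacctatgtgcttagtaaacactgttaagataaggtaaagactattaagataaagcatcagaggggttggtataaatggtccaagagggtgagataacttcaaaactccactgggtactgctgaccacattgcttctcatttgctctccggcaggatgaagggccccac

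TGACG was found in the windows of Chga, Nts and Chgb, in Chgb on both strands as TGACGTCA, and CAGATG in that of Sct and in the printed window of Insl5, the other window of Insl5 holding neither. Members that did not stand apart held them as well, with TGACG in the window of Cck and both windows of Pax6, and CAGATG in those of Gcg and Cck. TAATTA was in none of the 13 windows. A match is only a description of the letters, and binding was not tested.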

How the data were processed

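The authors flash-froze colon explants, extracted RNA with TRIzol and an RNeasy kit, selected poly(A) RNA and sequenced paired ends on an Illumina HiSeq. Per the submitters' notes and the study's methods, reads were trimmed with Trimmomatic 0.36, aligned to GRCm38 with STAR 2.5.2b and counted per gene with featureCounts. The annotation release and strand setting are not given in the sources used here. The deposited values are raw counts per gene symbol, 23719 rows, with totals of 16293537 to 20741212 per sample. Rows that share a symbol were kept apart.

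Groups came from the sample titles. edgeR 4.0.16 in R 4.3.3 (filterByExpr, TMM, robust quasi-likelihood test, Benjamini-Hochberg adjustment over 14146 genes, called at an adjusted p under 0.05) compared GWI with Control, and all adjusted p-values of differences between groups are from it unless another tool is named. CPM values are counts relative to TMM-scaled library sizes. Other settings used DESeq2 1.42.0, limma 3.58.1, other scalings, filters and covariates, a replicate block, and fits without each mouse. The code was tested on simulated data. Correlations used log2 CPM with a prior count of 2, centred on each group, with 100000 permutations within groups. They had been planned over 17 mice and are given over 15, a choice made after seeing that 2 mice stood apart. Summed lists were compared by exact permutation over mice. Gene positions are from GENCODE M21 on GRCm38.

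The members and lists were chosen with earlier results of these data known. Named genes were all 10 members, up to 6 called genes with the smallest p and up to 2 uncalled genes with the highest mean CPM from each other list, and the 5 genes most like Gcg, Pyy, Insl5 and any called member. Genes named for the mice that stood apart, and the genes most like these members over 15 mice, were chosen after their values were seen. Results of some genes of the glial and the Hox and position lists are not reported here.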

Additional observations from a re-analysis of the deposited data

Results flagged for a closer look

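Values were compared within each group for 20 genes and 4 summed marker lists, 48 sets in all, and 6 sets held a mouse far from the rest. The rule flags about 1 in 20 of independent, normally distributed sets. These sets share the same mice and need not be normal, so the count of 6 was not set against chance. For Insl5, Control replicate 1 at 33.9 CPM and GWI replicate 5 at 18.6 CPM were far above the other mice of their groups. For Chgb, Control replicate 1 at 92.9 CPM was far below the other Control mice. GWI replicate 1 was far above the other GWI mice for Gcg, at 107 CPM. Among the other enteroendocrine genes, Control replicate 9 was far above the other Control mice for Ddc, at 56.9 CPM, and GWI replicate 8 far above the other GWI mice for Scgn, at 6.90 CPM.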

How the results depend on the processing

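The count of members called was 0 in 35 of 36 other settings and 1 (Insl5) without GWI replicate 5, the range without 1 mouse each being 0 to 1. Of 329 log2 fold changes of members in other fits, 286 kept direction and call, and none of those that turned was called. Chgb turned to −0.10 with the muscle minus epithelium covariate, which also gave Insl5 0.026, Neurod1 −0.58, Pax6 −0.22, Cpe 0.28, Npy4r 0.0063 and Rab3b 0.20. Gcg turned to 1.3e-05 with DESeq2, 0.13 with limma-voom, 0.0035 with no filter, 0.0072 with a replicate block, 0.14 with the small intestine covariate, 0.11 without Control replicates 6 and 7 and 0.061 without these and the 2 mice high in Hoxb13. Pyy turned to −0.21 with limma-voom, −0.081 with the small intestine covariate, −0.067 without Control replicates 6 and 7 and −0.031 without the 4 mice. Nts was 0.030 with the replicate block. Neurod1 was −0.037 with upper-quartile factors, −0.032 scaled to epithelium, −0.020 without Control replicates 6 and 7 and −0.074 without the 4 mice. Pax6 was −0.046 with upper-quartile factors, −0.14 scaled to epithelium and −0.033 without the 2 mice high in Hoxb13. Leaving out 1 mouse gave −0.19 to 0.12 for Gcg, −0.038 to 0.21 for Pyy, −1.91 to 0.26 for Insl5, −0.044 to 0.22 for Neurod1 and −0.045 to 0.22 for Pax6. Fits without pairs or 4 mice and with the Hox covariate were chosen after seeing the data.

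Genes of the enteroendocrine and receptor lists called higher numbered 2. They were 1 with upper-quartile factors, 8 with limma-voom, 1 with the small intestine covariate and 0 scaled to epithelium. They were 4 without the 2 mice high in Hoxb13, 1 without Control replicates 6 and 7 and 5 with the Hox covariate. At an adjusted p under 0.01 there was 1, and 0 at an unadjusted p under 0.05 with an absolute log2 fold change over 1. Those called lower numbered 8, and 5 with library size alone, 28 with limma-voom, 5 with no filter, 3 with the muscle covariate, 1 scaled to epithelium, 4 without Control replicates 6 and 7, 13 with the Hox covariate, 0 at an adjusted p under 0.01 and 0 under the rule with a fold change. Without 1 mouse each, 2 to 3 were higher and 3 to 12 lower, under 6 without any 1 of Control replicates 2 to 6 or GWI replicates 1 to 4, 6 or 7. Of all tested genes, those called higher and lower were 1214 and 2992 with upper-quartile factors, 3901 and 4175 with limma-voom, 134 and 964 scaled to epithelium, 833 and 528 at an adjusted p under 0.01, and 92 and 250 under the rule with a fold change, with 1236 lower under the small intestine covariate, and 1472 to 2523 higher and 1309 to 2295 lower without 1 mouse each. The cause was not tested, except that an adjusted p under 0.01 calls fewer genes by construction. The rule with a fold change also drops the adjustment of p, so both choices changed at once.

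Mice with the same number share only that number: the correlation of their deviations was −0.51 to 0.11 over 8 pairs, over 0.1 in 1, and 0 of 8 GWI mice correlated best with their own number. With the replicate block 3 list genes and 826 genes in all were called lower. Pairs of members correlated numbered 2 over 15 mice, 13 over all 17, of which 1 was shared, and 17 as ratios to epithelium counts, which share a denominator. The planned fit without mice over 5 times the median small intestine level had no mouse to leave out, the highest being 2.51 times, in Control replicate 9. Low counts limit Pax6, Insl5 and Cck most, with 9, 13 and 23 counts in their lowest libraries, and Pax6 was not tested under the filter of 10 counts in every mouse.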
